A study of Rattus norvegicus with 6 samples.

Results

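The lysosomal cathepsins and the secreted cathepsin inhibitor cystatin C were followed in arthritic synovial tissue of rats given saline or triptolide, a diterpenoid drug from a Chinese medicinal vine. The genes were taken by name from the array: Ctsa, Ctsb, Ctsc, Ctsd, Ctsh, Ctsl, Ctss, Ctsz and Cst3, where probes that carry the older symbol Ctsl1 count as Ctsl. These 9 genes have 14 probes among 41012 non-control probes. All rats were male, 8 weeks old and arthritic: they received 0.1 ml of complete Freund's adjuvant by intraperitoneal injection each day for 18 days. The group called arthritis was given saline, and the group called triptolide 0.4 mg/kg of the drug, each day for 14 days. Synovial tissue of the hind ankle joints from 3 samples per group was hybridised to arrays of 1 colour, and no healthy group was analysed here. The replicates are not said to come from separate animals, so p-values measure only the spread between these samples, which may be technical.

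Cathepsins are proteases of the lysosome. Most are cysteine proteases of the papain family, while cathepsin D is an aspartic protease and cathepsin A a serine carboxypeptidase. Macrophages, fibroblasts and osteoclasts make them, and in inflamed joints secreted cathepsins can cut collagen and proteoglycans. Cystatin C, the product of Cst3, is secreted by most cells and blocks papain-like cathepsins outside the cell.

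No gene of the set differed between the groups beyond the spread of the replicates. By limma with Benjamini-Hochberg adjustment over all 25776 tested probes, 0 of the 9 genes were called, and the background share called over all tested probes was 0%. At an unadjusted p under 0.05 limma found 0 of the 9 genes and 0 of the 14 probes, against 3.24% of all tested probes. In none of the 9 genes did the groups fail to overlap, which happened in 8.64% of all tested probes. The median difference over the 9 genes, triptolide minus arthritis, was -0.014 on the log2 scale, beside 0.023 over all tested probes, and 4 of the 9 genes were higher, beside 53.9% of all tested probes. Without the array arthritis 2, 1 of the 9 genes was higher (Ctsz) and the median was -0.17, and without triptolide 2, 6 were higher and the median was 0.079. All 14 probes were well above background on all 6 arrays, and none had a saturated pixel or an outlier flag. The small number of arrays bounds the precision of every value.

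The arrays themselves differed in tissue makeup. The mean of 17 skeletal muscle genes, given as the distance from its mean over the 6 arrays, was 8.15 in arthritis 2 and between -3.89 and 1.76 on the other arrays. It was -3.86 and -3.89 in arthritis 1 and 3, and 1.12 and 1.76 in triptolide 1 and 3. In a comparison of those arrays, used below, group and muscle content therefore cannot be told apart. Triptolide 2 stood apart in 8 nerve and Schwann cell genes (2.55, with the other arrays at or below 0.22) and in 9 smooth muscle genes (2.07, with the other arrays at or below 0.33). Prg4, which encodes the lubricin made by synovial lining cells, read 4.27 in arthritis 2 and 3.52 in triptolide 2 as log2 levels. On the other 4 arrays it read between 6.55 and 7.37. The mean of 14 synovial fibroblast genes, Prg4 among them, was -0.49 in arthritis 2 and -0.51 in triptolide 2. Not every gene of that list followed. Dpp4 was highest in triptolide 2 (2.28), and Clic5 in arthritis 2 (3.41) lay between arthritis 1 and 3. Slide 1 held arthritis 1 to 3 and triptolide 1, and slide 2 held triptolide 2 and 3, so slide and group can largely not be told apart. In bulk tissue, fewer cells of a type and less RNA per cell cannot be told apart either. For many of the counts and differences that leaving out arthritis 2 or triptolide 2 turned or moved strongly, the value without that array is given. A value that is not given does not mean that a difference was stable.

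What the array reads is a stretch of 60 bases of each transcript. The probes of 4 cysteine cathepsins are shown: Ctss and Ctsz, which varied most between arrays among the 9 genes, Ctsh, which came next, and Ctsl, whose second probe gave a difference of the other sign. They are written 5′ to 3′.
Ctss probe: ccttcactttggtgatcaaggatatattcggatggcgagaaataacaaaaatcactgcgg
Ctsz probe: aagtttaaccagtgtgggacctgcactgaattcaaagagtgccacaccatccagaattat
Ctsl probe: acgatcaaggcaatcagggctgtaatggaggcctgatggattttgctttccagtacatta
Ctsh probe: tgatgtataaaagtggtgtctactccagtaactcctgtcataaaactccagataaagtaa
In rn4 coordinates, which the scanner files carry, the Ctss probe lies at chr2:190466474-190466533 and the Ctsl probe at chr17:6290718-6290777. The Ctsh probe spans 2307 bases, chr8:94986941-94989247, so its 60 bases come from more than 1 exon, and all 3 are on the plus strand. Although these genes belong to related families, no probe of one gene shares more than 10 bases in a row with a probe of another, over 85 pairs of probes.

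Levels below are log2 intensities with the array's 75th percentile at 0. They can be compared between arrays for 1 probe, and not between probes. Where a gene has several probes, the one with the highest mean signal stands for it.

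Ctss, an endopeptidase that trims the invariant chain of MHC class II and stays active at neutral pH, had levels of 6.32, 5.92 and 6.71 in arthritis 1 to 3 and 6.96, 5.52 and 6.998 in triptolide 1 to 3. The lowest and the highest array were both treated, so the groups overlapped fully. The means were 6.32 ± 0.40 (SD, n = 3) and 6.49 ± 0.84 (SD, n = 3), a difference of 0.18 (SE 0.45, 95% interval -0.91 to 1.26). The other Ctss probe, whose sequence is shown above, gave 0.13 (SE 0.45), and the probes ran within 0.068 of each other on every array once each was centred. Of the genes with several probes, Ctss had the smallest such gap, and of all 9 it varied most between arrays: its SD over the 6 arrays is at percentile 85.6 of all tested probes. Without arthritis 2 its difference was -0.023, without triptolide 2 it was 0.66, and without triptolide 3 it was -0.076.

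Ctsz, a carboxypeptidase also called cathepsin X, showed the largest difference of the 9 genes. Its levels were 3.21, 2.66 and 3.46 in arthritis 1 to 3 and 3.85, 2.85 and 3.80 in triptolide 1 to 3. Triptolide 1 and 3 lay above all arthritis arrays, and triptolide 2 lay below arthritis 1 and 3. The means were 3.11 ± 0.41 (SD, n = 3) and 3.50 ± 0.56 (SD, n = 3). The difference was 0.39 (SE 0.35, 95% interval -0.44 to 1.23), a 1.31-fold higher mean with an adjusted p of 0.994 by limma. It sat at percentile 90.5 of the differences of all tested probes. It was positive under each of the 15 further values that the alternatives gave, from 0.17 without arthritis 2 to 0.75 with slide as a block, which compares triptolide 1 alone with the arthritis arrays of its slide. No alternative brought its adjusted p below 0.397.

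**Figure D1:**
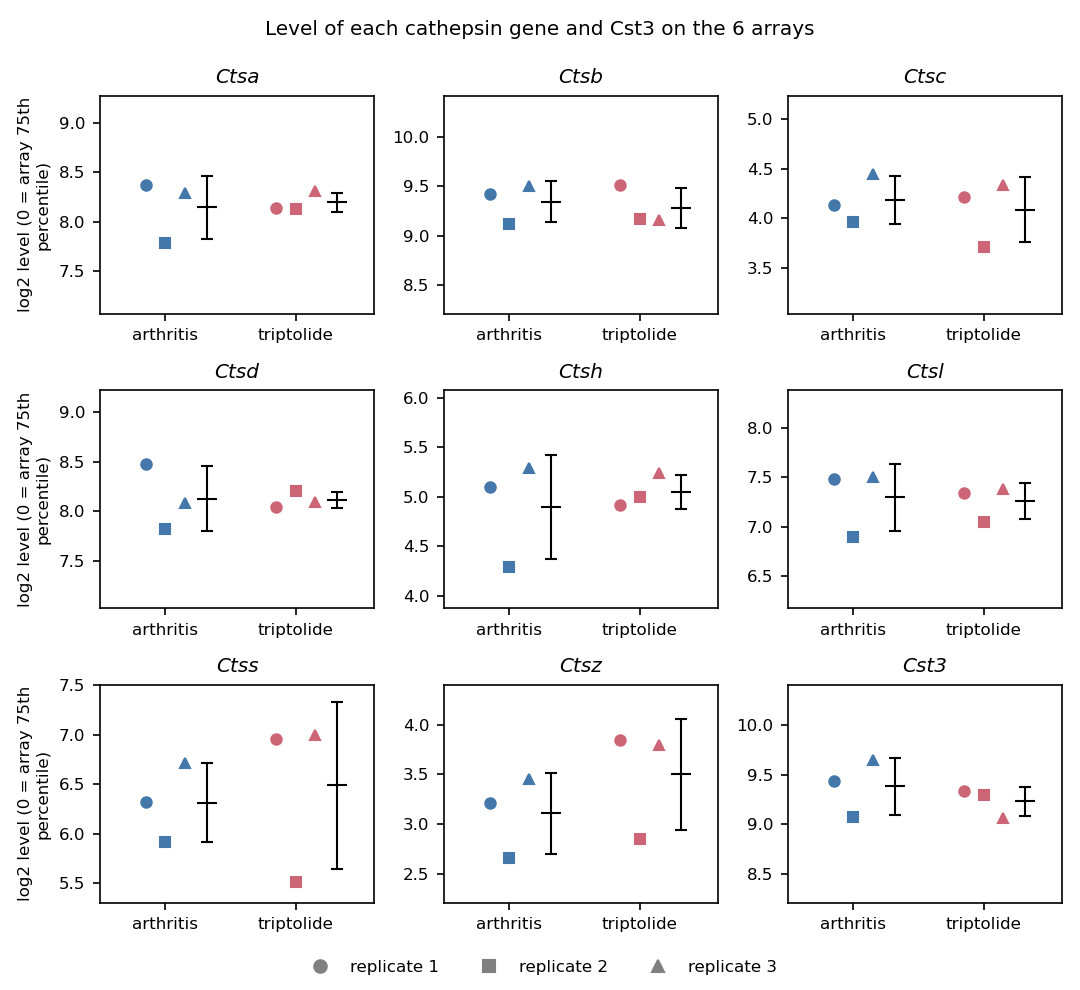
Log2 level of each of the 9 genes (y axis, 0 is the array's 75th percentile) in arthritis and triptolide (x axis), with 1 point per array shaped by replicate and the mean ± SD of 3 arrays as bars. Every panel spans the same range unit for unit, and in all 9 the groups overlap. Ctss has the widest spread, from 5.52 to 6.998, both in triptolide.

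Ctsb, which cuts both inside proteins and from their ends, had levels of 9.42, 9.11 and 9.50 in arthritis and 9.51, 9.17 and 9.15 with triptolide. The groups covered almost the same range. The difference was -0.066 (SE 0.18), and its 95% interval corresponds to a treated level between 0.701 and 1.30 times that of arthritis, the narrowest interval among the cathepsins. Without arthritis 2 the difference was -0.18. Its SD over the arrays was also the lowest of the 9 genes, at percentile 23.8.

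Ctsl, an endopeptidase that degrades collagen and elastin, had levels of 7.48, 6.90 and 7.50 in arthritis and 7.34, 7.05 and 7.39 with triptolide. Arthritis 2 was the lowest array and the other arthritis arrays the highest, so the treated arrays fell between them. The difference was -0.039 (SE 0.22), and 0.034 (SE 0.28) for the other probe, printed above. Leaving out arthritis 2 moved it to -0.24.

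Ctsh, mainly an aminopeptidase, had levels of 5.10, 4.30 and 5.29 in arthritis and 4.92, 4.997 and 5.24 with triptolide. Arthritis 2 lay far below the other arrays, and the treated arrays lay among arthritis 1 and 3 or just below them. The means were 4.90 ± 0.53 (SD, n = 3) and 5.05 ± 0.17 (SD, n = 3), a difference of 0.16 (SE 0.29), which became -0.14 without arthritis 2.

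Ctsc, the dipeptidyl peptidase that activates granule serine proteases of neutrophils and cytotoxic lymphocytes, had levels of 4.14, 3.96 and 4.45 in arthritis and 4.21, 3.71 and 4.33 with triptolide. Its lowest array was triptolide 2, as for Ctss. The difference was -0.098 (SE 0.23), and 0.089 without triptolide 2 or -0.21 without arthritis 2.

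Ctsd, the aspartic protease, had levels of 8.48, 7.82 and 8.09 in arthritis and 8.05, 8.20 and 8.09 with triptolide. The treated arrays were close together (SD 0.080, n = 3) inside the arthritis range (SD 0.33, n = 3). The difference was -0.014 (SE 0.20, 95% interval -0.51 to 0.48), and -0.17 without arthritis 2.

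Ctsa, a serine carboxypeptidase that also protects lysosomal galactosidase and neuraminidase, had levels of 8.37, 7.79 and 8.29 in arthritis and 8.14, 8.13 and 8.31 with triptolide. Again arthritis 2 was lowest. The difference was 0.048 (SE 0.20), and the other probes of the gene gave 0.17 (SE 0.23) and 0.18 (SE 0.24). Without arthritis 2 it was -0.13.

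Cst3 was read by 2 probes that overlap by 40 of their 60 bases and yet pointed in opposite directions. The brighter probe had levels of 9.43, 9.07 and 9.64 in arthritis and 9.34, 9.29 and 9.06 with triptolide, a difference of -0.15 (SE 0.20, 95% interval -0.63 to 0.33), or -0.31 without arthritis 2. The dimmer probe had 8.43, 7.98 and 8.44 in arthritis and 8.34, 8.62 and 8.36 with triptolide, a difference of 0.16 (SE 0.19, 95% interval -0.31 to 0.62). The groups overlapped for both, and neither interval leaves out 0. Because the probes share most of their bases, only their ends of 20 bases are shown, to make plain how little sequence separates them.
Cst3, dimmer probe, bases before the shared stretch: ctaagagctgagtctcatag
Cst3, brighter probe, bases after the shared stretch: gtgttttatccctgagaagg
The probes lie on the minus strand, at chr3:137651084-137651143 for the dimmer and chr3:137651064-137651123 for the brighter probe on rn4.

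The probes differ in where they sit on the array, and with that in the factor by which the scanner software divided each spot's signal to remove spatial trends. The brighter Cst3 probe is in row 47 of 532 and column 80 of 85. Its factors were 0.688, 0.646 and 0.652 in arthritis 1 to 3 and 0.755, 0.908 and 0.822 in triptolide 1 to 3. The groups do not overlap in this factor, and every arthritis reading was raised more by the division than every treated one. For the dimmer probe, in row 273 and column 1, the factors lay between 1.06 and 1.14 on all arrays. With the detrending undone, an alternative added after seeing the data, the brighter probe gave 0.16 (SE 0.22) and the dimmer 0.094 (SE 0.19), both positive. With normexp background correction, which starts from the mean signal before detrending, they gave 0.19 and 0.13. Cst3 therefore has no settled direction here. Ctsh, in row 41, had factors of 0.761, 0.698 and 0.630 in arthritis and 0.821, 0.853 and 0.855 with triptolide, and its difference moved from 0.16 to 0.43 (SE 0.29) when they were undone. The other 11 probes had factors from 0.83 to 1.16, and in some of them the groups did not overlap either. The factors were lower in arthritis for Ctsb and the Ctsl probe that stands for the gene. They were higher in arthritis for Ctsc, Ctsd and the Ctss probe printed above. With detrending undone Ctsc moved from -0.098 to -0.24, Ctsb from -0.066 to 0.042 and the printed Ctss probe from 0.13 to 0.061. The Ctss probe that stands for the gene, whose factors overlapped between the groups, moved from 0.18 to 0.046.

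**Figure D2:**
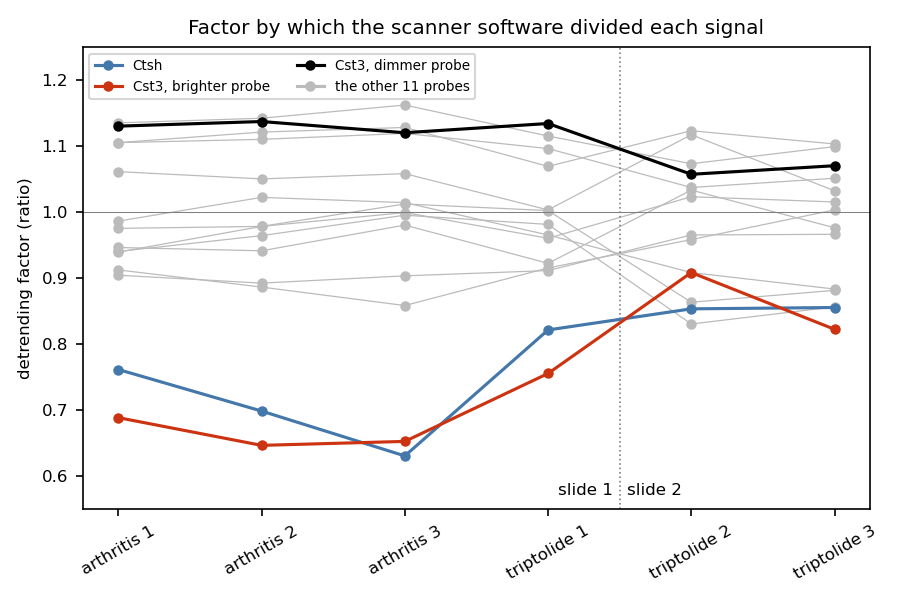
Factor by which the scanner software divided the signal of each of the 14 probes (y axis, a ratio) on each array (x axis), with the slides parted by a dotted line. The brighter Cst3 probe runs from 0.646 to 0.908 and the Ctsh probe from 0.630 to 0.855, each lower on all 3 arthritis arrays than on the treated ones, and the dimmer Cst3 probe stays between 1.06 and 1.14.

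**Figure D3:**
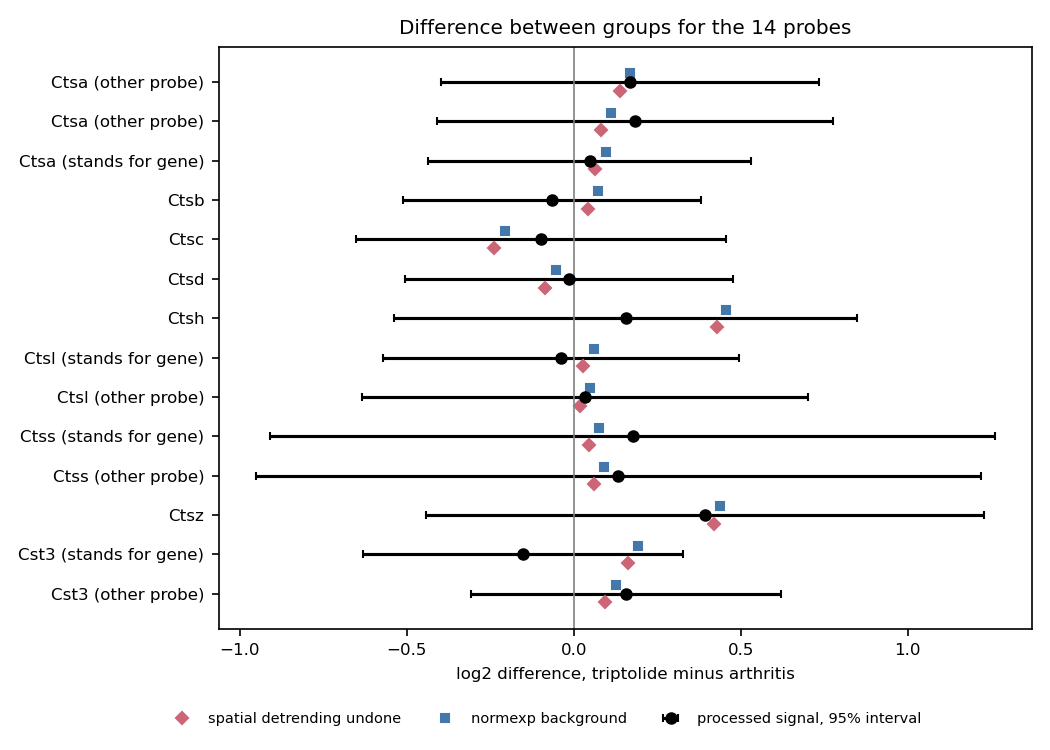
Log2 difference, triptolide minus arthritis (x axis), of the 14 probes (y axis): black points with 95% intervals from limma, squares with normexp background correction and diamonds with spatial detrending undone. All 14 intervals cross 0. The brighter Cst3 probe moves from -0.15 to 0.16 with detrending undone, and Ctsz stays between 0.39 and 0.44.

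The balance of proteases to inhibitor was read as the log2 ratio of each cathepsin to the brighter Cst3 probe on the same array, which does not depend on scaling between arrays. It was higher with triptolide for all 8 cathepsins, by 0.55 for Ctsz, 0.33 for Ctss, 0.31 for Ctsh and 0.054 to 0.20 for the others. In all 8 the groups overlapped. Since every ratio holds the same Cst3 reading, the 8 are not separate observations. The median change was 0.17, and it turned to -0.12 both with detrending undone and with normexp, so the ratio has no settled direction either. The ratio to the dimmer Cst3 probe, whose own difference was 0.16, was not computed. Ctsa, Ctsb, Ctsc, Ctsd and Ctsl differed by less than that probe, so their ratios to it would be lower with triptolide.

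Across arrays the cathepsins shared a profile that the grouping does not describe. The mean of the 8 cathepsins around each gene's own mean was 0.10, -0.40 and 0.20 in arthritis 1 to 3 and 0.16, -0.26 and 0.20 in triptolide 1 to 3. In arthritis 2 all 8 cathepsins were below their mean, and 6 of them had their lowest array there. In triptolide 2, 6 of the 8 were below their mean, and Ctss and Ctsc had their lowest array. Ctsd (0.081) and Ctsh (0.023) were above their means there. Means of marker genes moved with this profile. Over 15 tested macrophage genes of 16 listed the means were 0.035, -0.43 and 0.26 in arthritis and 0.25, -0.53 and 0.42 with triptolide. Over 14 T and NK cell genes they were 0.15, -0.62 and 0.37, then 0.47, -0.92 and 0.54. Over 14 synovial fibroblast genes they were 0.31, -0.49 and 0.54, then 0.013, -0.51 and 0.13. With the macrophage mean as a covariate the difference of Ctss fell from 0.18 to 0.039 and that of Ctsz from 0.39 to 0.29. Those of Ctsa (0.016) and Ctsh (0.10) also shrank. Those of Ctsb (-0.091), Ctsc (-0.16), Ctsd (-0.022), Ctsl (-0.090) and Cst3 (-0.17) grew in size. Whether macrophage content accounts for any of these differences was not tested. With the muscle mean as a covariate the differences of Ctss and Ctsz were 0.18 and 0.39.

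**Figure D4:**
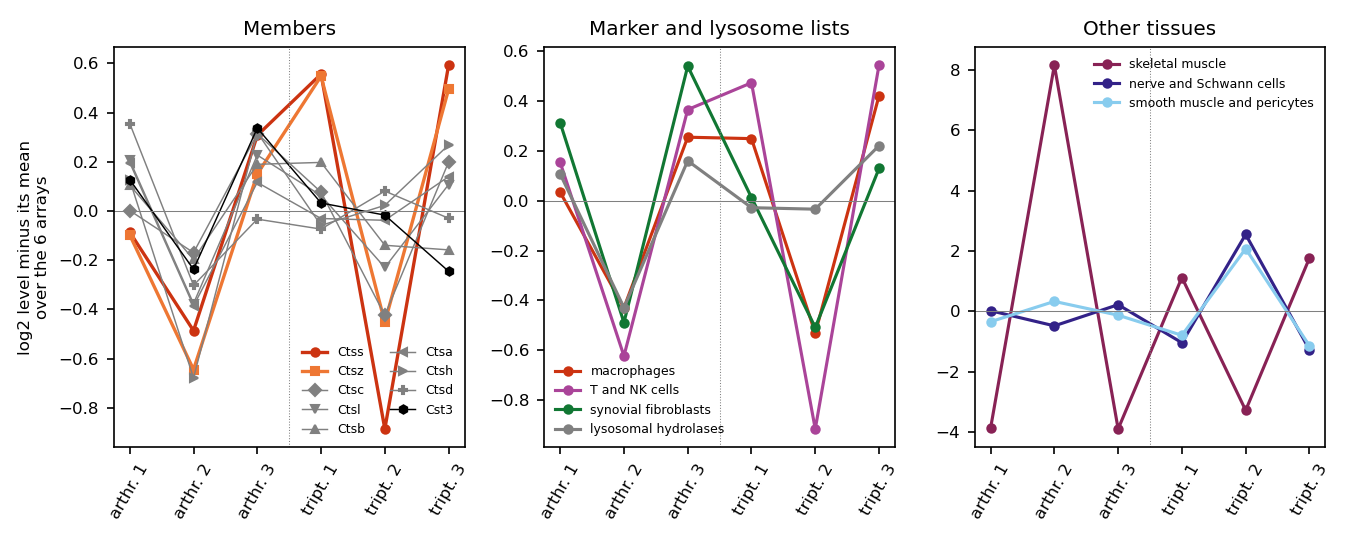
Log2 level minus its mean over the 6 arrays (y axis) on each array (x axis) for the 9 genes, for means of marker and lysosomal hydrolase lists, and for means of skeletal muscle, nerve and smooth muscle lists on a wider scale. The cathepsins and the macrophage, T cell and fibroblast means dip in arthritis 2. In triptolide 2 the macrophage (-0.53), T cell (-0.92) and fibroblast (-0.51) means dip, and 6 of the 8 cathepsins lie below their mean, Ctss, Ctsz and Ctsc furthest. Skeletal muscle peaks at 8.15 in arthritis 2, and nerve at 2.55 in triptolide 2.

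Among macrophage markers, 9 were higher and 6 lower with triptolide and 0 were called, with a median of 0.030. Without arthritis 2, 3 of the 15 were higher, and without triptolide 2, 14 were. Aif1, a calcium-binding protein of activated macrophages, had the highest difference, 0.46 (SE 0.38), and Lyz2, the macrophage lysozyme, the lowest, -0.16 (SE 0.47). Without triptolide 2 they were at 0.86 and 0.38. Of 4 tested osteoclast genes of 9 listed, 0 were called. Mmp9, a gelatinase, read 0.69, -0.12 and 0.68 in arthritis and 0.92, 0.71 and 1.38 with triptolide, a difference of 0.59 (SE 0.30) with groups that did not overlap, and 0.32 without arthritis 2. It was 1 of the 4 higher without overlap, beside 4.73% of all genes. Dcstamp, needed for osteoclast fusion, had the lowest, -0.31 (SE 0.26), or -0.50 without triptolide 2. Of the 4 genes 3 were higher, and 1 without arthritis 2. Among 14 fibroblast genes, 0 were called, and the range ran from Clic5 at -1.33 (SE 0.77) to Htra1, a secreted serine protease, at 0.28 (SE 0.27). Clic5 read 0.35 in triptolide 2 and between 2.90 and 3.88 on the other 5 arrays, and without triptolide 2 its difference was -0.40. Htra1 was at 0.014 without arthritis 2. Of the fibroblast genes 6 were higher, and 3 without arthritis 2.

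Over the 6 arrays, the genes whose profile was most like the mean of the 8 cathepsins included Tmem179b, Trps1, a zinc finger transcription factor, Rpl19-ps25 and Metrnl, all at a Pearson r of 0.997 to 0.998 among 11694 genes. The value is a description over 6 arrays that share the dip in arthritis 2, and 9.99% of the genes had an r above 0.9. The genes most like the brighter Cst3 probe were Zkscan7, Septin5, Fv1, Qtrt1 and Mmp13, the collagenase 3 gene, with r from 0.971 down to 0.947. Only 0.154% of genes had an r above 0.9 with that probe. Its profile shifts with the detrending described above. The dimmer Cst3 probe, highest in triptolide 2 (8.62), was not searched, so these genes describe 1 probe and not the gene. In none of the like genes named here was limma's adjusted p below 0.994.

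The lysosome around the cathepsins showed the same lack of calls. Of 4 tested cathepsins outside the set, 2 were higher and 2 lower, with 0 called. Without arthritis 2 none of the 4 was higher (median -0.31), and without triptolide 2 all 4 were (median 0.20). Ctsk, the collagenase of osteoclasts and synovial fibroblasts, read 5.84, 4.99 and 5.55 in arthritis and 5.42, 5.67 and 5.61 with triptolide, a difference of 0.11 (SE 0.24), which was -0.12 without arthritis 2. Ctsf differed by 0.14 (SE 0.21) and Ctsw, the cathepsin of NK and cytotoxic T cells, by -0.28 (SE 0.68). Without arthritis 2 Ctsf was at -0.038, and without triptolide 2 Ctsw was at 0.37. A list drawn up as inhibitors of cysteine proteases also held inhibitors of other proteases, such as Lxn and serpins. Of its 8 tested genes, 7 were higher and 1 lower, with 0 called and a median of 0.20. Without arthritis 2, 3 of the 8 were higher (median -0.024), as were 3 with arthritis 1 and 3 against triptolide 1 and 3 (median -0.081). The shares of all genes that were higher in these settings were 46.7% and 50.3%. Cst6, a secreted cystatin, differed by 0.50 (SE 0.44), Lxn by 0.22 (SE 0.26) and Cstb, the cytosolic cystatin B, by 0.19 (SE 0.29). Without arthritis 2 these were 0.19, 0.0063 and -0.035.

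Other lysosomal lists had more genes higher than lower, with 0 genes called in each. Over all genes, with 1 probe each, 55.8% were higher with triptolide. Of 37 lysosomal hydrolases 28 were higher (median 0.081), of 19 membrane proteins 17 (median 0.14), of 20 subunits of the proton pump that acidifies lysosomes 17 (median 0.12), and of 15 sorting genes 11 (median 0.12). Leaving out arthritis 2 turned these counts. Without it 12 of 37 hydrolases, 6 of 19 membrane proteins, 8 of 20 pump subunits and 7 of 15 sorting genes were higher, beside 46.7% of all genes. With arthritis 1 and 3 against triptolide 1 and 3, chosen after seeing the data, the counts were 16, 13, 13 and 9, beside 50.3% of all genes. Group and muscle content cannot be told apart in that comparison. Without triptolide 2 the counts were 27, 16, 17 and 13, beside 56.7% of all genes. The medians were then 0.11, 0.27, 0.36 and 0.26.

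Among these lists, Tcirg1, the pump's a3 subunit of osteoclasts and macrophages, read 6.64, 6.02 and 6.68 in arthritis and 7.29, 6.74 and 7.09 with triptolide. Every treated array lay above every arthritis array, as in 4.73% of all genes. The same held in 2 of 37 hydrolases, 0 of 19 membrane proteins, 1 of 20 pump subunits and 1 of 15 sorting genes, all named here. The difference of Tcirg1 was 0.60 (SE 0.25), with an adjusted p of 0.994 by limma, and 0.38 without arthritis 2. Psap, the precursor of the saposins that help degrade sphingolipids, read 5.44, 4.82 and 5.30 in arthritis and 5.69, 5.50 and 5.51 with triptolide, also without overlap, a difference of 0.38 (SE 0.20), or 0.20 without arthritis 2. Gga1, an adaptor that carries mannose 6-phosphate receptors from the Golgi, differed by 0.31 (SE 0.14) without overlap of the groups. Prcp, a lysosomal carboxypeptidase, did not overlap either, at 0.32 (SE 0.22), or 0.11 without arthritis 2. The other genes taken by the same rule were Acp2, a lysosomal acid phosphatase, at 0.36 (SE 0.22), Ctns, the cystine transporter, at 0.35 (SE 0.19), and Ostm1 at 0.31 (SE 0.20). Without arthritis 2 these were 0.20, 0.21 and 0.13. Laptm4a ran the other way without overlap, as 3.76% of all genes did, at -0.21 (SE 0.14). It was the 1 such gene of 19 membrane proteins, beside 1 of 37 hydrolases, 0 of 20 pump subunits and 0 of 15 sorting genes. Of the remaining pump and sorting genes, Atp6v1c2 differed by 0.72 (SE 0.47), Atp6v1b2 by 0.37 (SE 0.27), Ap1s1 by 0.26 (SE 0.27) and Ap1g1 by 0.15 (SE 0.18). Without arthritis 2 Atp6v1c2 was at 0.19, Atp6v1b2 at 0.16 and Ap1s1 at 0.060, and without triptolide 2 Ap1g1 was at 0.26.

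The MiT/TFE factors, which switch on lysosomal genes, and the mTORC1 components that hold them in check were divided, with 6 of 14 higher, 8 lower and 0 called (median -0.010). Rraga, a Rag GTPase, differed by -0.27 (SE 0.19), Lamtor2, part of its lysosomal anchor, by -0.23 (SE 0.18), and Tfec, a member of the factor family, by 0.42 (SE 0.34). Without triptolide 2 these were -0.15, -0.11 and 0.77. Among genes of collagen and other matrix that cathepsins can cut, 10 of 11 were lower, with 0 called and a median of -0.20. Col5a2 read 5.90, 5.26 and 5.74 in arthritis and 5.02, 5.05 and 5.22 with triptolide, without overlap, a difference of -0.54 (SE 0.21). In the list 2 of 11 genes were lower without overlap, beside 3.76% of all genes. Col3a1 differed by -0.39 (SE 0.20) and Col5a1 by -0.46 (SE 0.31). Without arthritis 2 it was again 10 of 11 lower, with a median of -0.50, and the median was -0.16 with detrending undone. With normexp 9 of 11 were lower, with a median of -0.10. Without arthritis 2 Col5a2, Col3a1 and Col5a1 were at -0.73, -0.55 and -0.73.

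**Figure D5:**
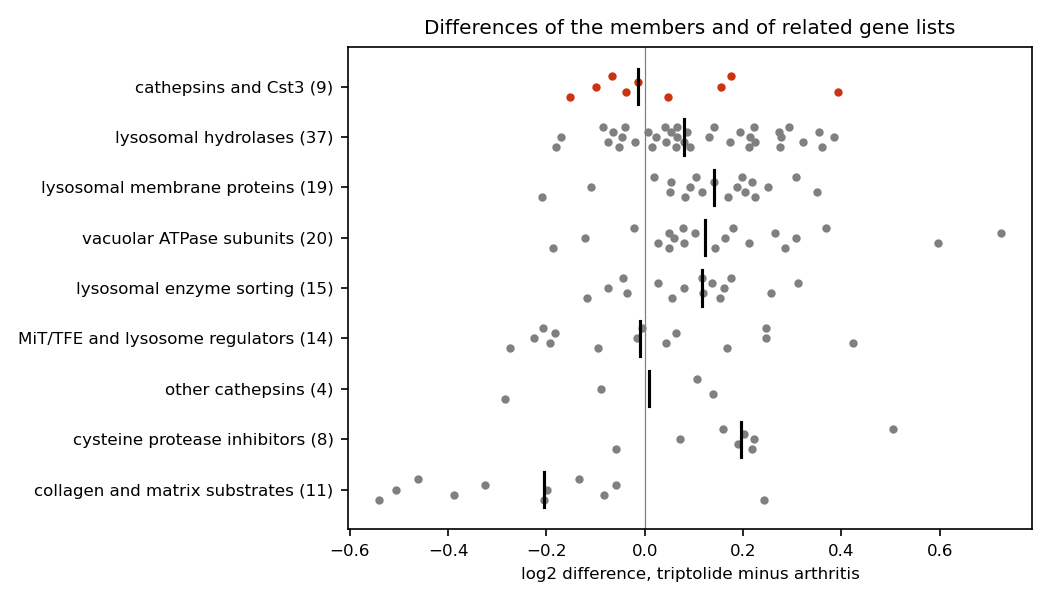
Log2 difference, triptolide minus arthritis (x axis), of each tested gene in the set of 9 (red) and in related lists (grey), with the number of genes in brackets and the list median as a bar. The set of 9 spreads around its median of -0.014, most lysosomal lists lie to the right with medians of 0.081 to 0.14, and matrix genes lie to the left with a median of -0.20. No gene shown was called.

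Promoter sequences from RefSeq on build GRCr8, from the table of windows around gene starts, were present for 8 of the 9 genes and not used for Ctsb. They were searched on both strands because Ctss and Ctsz ran together across arrays while Ctsd did not. GAGGAA, the core bound by the myeloid factor PU.1, was found in 5 of the 8 (Ctsa, Ctsc, Ctsh, Ctss and Ctsz) and in 27.6% of 33469 rat promoters. CACGTG, the E-box contained in the element that MiT/TFE factors bind, was found in Ctsd alone and in 6.42% of promoters, and so was TCACGTG, which contains CACGTG, in 3.20%. GGGCGG, the GC box, was in 7 of the 8, all but Ctss, and in 33.1% of promoters. TTCNNNGAA, the gamma-activated site, was in none of the 8 and in 8.87%. Of the 5 genes with GAGGAA, Ctss, Ctsz and Ctsc were at -0.89, -0.45 and -0.42 around their own means in triptolide 2. Ctsa and Ctsh were at -0.037 and 0.023 there. The searched genes without GAGGAA, Ctsl, Cst3 (brighter probe) and Ctsd, were at -0.23, -0.016 and 0.081 on that array. A stretch each of Ctss, Ctsz and Ctsd is printed in the direction of the gene, with the PU.1 core of either strand or the E-box in capitals.
Ctss, plus strand, chr2:185775366-185775395: gaaatgaaagttcacTTCCTCgttgtggat
Ctsz, minus strand, chr3:183653888-183653947: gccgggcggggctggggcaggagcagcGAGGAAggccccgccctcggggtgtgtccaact
Ctsd, minus strand, chr1:206968822-206968881: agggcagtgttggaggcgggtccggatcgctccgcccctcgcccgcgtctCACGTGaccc
In Ctss and Ctsd the printed stretch ends at the base before the start the table gives, and in Ctsz it ends 40 bases earlier. These matches describe letters in a window and were not tested for binding or for a link to the array profiles.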

How the data were processed

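Each array received Cy3-labelled cRNA made from 0.5 ug of RNA, per the labels' protocols. The deposited scanner files hold spot intensity with background subtracted and spatial trends divided out, not normalized between arrays, and give the detrending factor as a ratio. Per the file headers they come from Agilent Feature Extraction 10.7.3.1, while the submitters' processing notes name 9.1. The authors' deposited table of log2 values has 167 rows and 0 of the 14 probes, so it was not used. Depth here is signal: 59.6% to 65.1% of 43379 non-control spots per array were well above background.

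Control and outlier-flagged spots were left out, each array's log2 75th percentile was subtracted, and spots of a probe were averaged. Probes well above background on at least 3 of 6 arrays (25776) were fitted with limma 3.58.1 in R 4.3.3 (lmFit, eBayes, Benjamini-Hochberg over all of them, threshold 0.05). The fit was tested on simulated data with known changes. Alternatives changed scaling, background, filter, slide, replicate number, array weights, tissue covariates and left-out arrays. Named genes are the 9 members, the 3 smallest unadjusted p of each pathway list, 5 like genes per profile, and the extremes of 3 marker lists. Prg4 and Dpp4 were added after their values were seen. One gene that the rule takes is not reported here. Members and lists were chosen with earlier results of these data known.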

Additional observations from a re-analysis of the deposited data

How the results depend on the processing

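No member was called by limma under any of 20 alternatives. Over all tested probes, counted in 19 of them, 0 were called in 18, and the other, arthritis 1 and 3 against triptolide 1 and 3, added after seeing the data, called 24 probes and no member. Group and muscle content cannot be told apart in that comparison. The number of probes at an unadjusted p under 0.05, 835 as reported, ranged from 619 without triptolide 3 to 2881 in that comparison, with 1658 without triptolide 2, 1758 with no filter on dim probes, 2592 with array weights and 1601 with muscle as covariate. A single member reached it in 3 of these: Ctsz without triptolide 2 and in that comparison, and Cst3 with array weights. The direction of 8 members depended on the setting, while that of Ctsz did not. With quantile normalization Ctsb was 0.034, Ctsd 0.17 and Ctsl 0.099, and the median member difference moved to 0.17. With normexp Ctsb was 0.073, Ctsl 0.060 and Cst3 0.19. With detrending undone Ctsb was 0.042, Ctsl 0.029 and Cst3 0.16. With the slide blocked, and equally with slide 1 alone, Ctsa was -0.0061, Ctsb 0.16, Ctsc 0.028 and Ctsl 0.044. With array weights Ctsa was -0.049 and Ctsh -0.013, and with arthritis 1 and 3 against triptolide 1 and 3 Ctsa was -0.10 and Ctsh -0.12. The mean over both Cst3 probes was 0.0018. The median cathepsin to Cst3 ratio, 0.17 as reported, moved to -0.12 with normexp and with detrending undone. Leaving out 1 array at a time gave -0.17 to 0.16 for the median member difference and 0.061 to 0.29 for the ratio. For single genes it gave -0.13 to 0.16 for Ctsa, -0.18 to 0.013 for Ctsb, -0.22 to 0.089 for Ctsc, -0.17 to 0.16 for Ctsd, -0.14 to 0.35 for Ctsh, -0.24 to 0.066 for Ctsl, -0.076 to 0.66 for Ctss, 0.17 to 0.72 for Ctsz and -0.31 to -0.022 for Cst3. The cause of these moves was not tested beyond the detrending factors described above. The value table could not serve as an alternative, since it holds 0 of the 14 probes.

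Replicate numbers did not pair the samples: deviations of same-numbered samples correlated at -0.16, -0.13 and 0.00079. With the replicate block the median member difference was -0.014 and 0 members were called, with 1066 probes at an unadjusted p under 0.05.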
